A study of Mus musculus with 34 samples.

Results

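The genes described here are 37 genes of the NRF2 response, glutathione metabolism and the pentose phosphate pathway, out of 35976 gene symbols in the deposited expression table of 34 mouse livers. They were chosen by symbol: 2 regulators (Nfe2l2, Keap1), 5 NRF2 targets, 4 genes of glutathione synthesis and reduction, 4 pentose phosphate enzymes, and the cytosolic and membrane glutathione transferases (4 of the alpha class, 7 mu, 2 pi, 3 theta, 3 of the kappa, omega and zeta classes, 3 microsomal). All 37 had a row in the table and all passed the filter for testing, which asked for 1 FPKM or more in at least 5 libraries. FPKM counts fragments relative to transcript length and library size.

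NRF2, encoded by Nfe2l2, is a transcription factor that KEAP1 holds at a low level by directing it to degradation. Oxidants and electrophiles disable KEAP1, and NRF2 then switches on genes that make glutathione, regenerate NADPH and detoxify reactive compounds. In liver, glutathione transferases join glutathione to drugs, lipid peroxides and other electrophiles, and the pentose phosphate pathway supplies NADPH for glutathione reduction and for lipid synthesis.

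All mice were C57BL/6, homozygous for TetO-Cas9, a Cas9 gene under tetracycline control, and homozygous for Rosa-rtTA, the transactivator that drives it. Each had received an adeno-associated virus (AAV) with a guide RNA and 3 months of Western diet, so the controls carried Cas9, a virus and the diet too. The knockout groups (KO, after their labels) are Tbx3 (7 livers), Smyd2 (6), Bcl6 (5), Irs1 (5) and Srebf1 (5), each named for the gene its guide targets, and the 6 control livers had a guide against GFP (sgGFP, 4 livers) or LacZ (sgLacZ, 2 livers). Age, sex and the serotype of the virus are not in the labels used here, and nothing in them says how many hepatocytes of a liver were edited. The labels do not say that the livers came from separate litters or cohorts, so p-values measure the spread between these samples. All 5 comparisons with the control share the same 6 control livers.

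Depth implied by the lowest values was 2110000 to 3130000 counted reads per library, which makes 1 read on a 1 kb transcript worth 0.32 to 0.473 FPKM. Srebf1 itself checked the labels in 4 of 5 Srebf1 KO livers (499 to 632 FPKM against 1095 to 2177 in controls), and the library labelled Srebf1 KO replicate 1 held 1908 FPKM. The mRNA of the other 4 targeted genes overlapped or exceeded the control range and does not check the labels. Over all genes tested, sgGFP replicate 3, Smyd2 KO replicate 6 and Tbx3 KO replicate 7 had the lowest mean Pearson correlation with the other livers of their own groups (0.936, 0.943 and 0.943). The next lowest livers of those groups were at 0.943, 0.958 and 0.947, so Smyd2 KO replicate 6 stood furthest from the rest of its group and the other two stood close to the next liver. Hepatocyte markers were present in every liver, with a summed level of 59983 to 81339 FPKM in the controls. In whole liver, fewer cells of a type and less RNA per cell cannot be told apart.

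The core of the antioxidant response element, to which NRF2 and small MAF proteins bind, was searched as TGACNNNGC on both strands in the 250 bases before each RefSeq start (build GRCm38.p6). Windows were at hand for 32 of the 37 genes, 43 windows in all. A match was found in 8 of the 32 genes and in 18.6% of the 43 windows, against 10.16% of all 32851 mouse windows of that length. The matches were TGACTCCGC in Nfe2l2, GCACCGTCA in Gclm, GCTTTGTCA in Txnrd1, GCTCAGTCA in G6pdx, TGACATTGC in Gsta3, TGACCACGC in Gstm5, TGACAAAGC in Gstm7 and GCACGGTCA in Mgst1, where GCNNNGTCA is the same motif on the other strand. A missing match says only that these letters are not in this window.

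Below are the windows of Nfe2l2 and of Gclm, the modifier subunit of the first enzyme of glutathione synthesis, which hold the motif (in capitals), and those of Gstm1 and Nqo1, which fell in Irs1 KO livers and do not. Each is written 5′ to 3′ on the gene's strand, and the last base lies next to the start of transcription. The Nfe2l2 window is chr2:75704664-75704913 (minus strand), the Gclm window chr3:122245307-122245556 (plus), the Gstm1 window chr3:108017974-108018223 (minus) and the Nqo1 window chr8:107403206-107403455 (minus). The motif began 240 bases before the start of Nfe2l2 and 134 bases before that of Gclm. These windows are examples only. G6pdx was also called lower in Irs1 KO livers, and its window holds the motif. A further window of Gstm1, not printed, has no match either.
Nfe2l2: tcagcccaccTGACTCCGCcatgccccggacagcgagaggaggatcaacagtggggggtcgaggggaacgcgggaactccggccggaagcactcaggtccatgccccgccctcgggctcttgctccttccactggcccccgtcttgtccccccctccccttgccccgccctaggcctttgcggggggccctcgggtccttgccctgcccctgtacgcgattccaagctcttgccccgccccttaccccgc
Gclm: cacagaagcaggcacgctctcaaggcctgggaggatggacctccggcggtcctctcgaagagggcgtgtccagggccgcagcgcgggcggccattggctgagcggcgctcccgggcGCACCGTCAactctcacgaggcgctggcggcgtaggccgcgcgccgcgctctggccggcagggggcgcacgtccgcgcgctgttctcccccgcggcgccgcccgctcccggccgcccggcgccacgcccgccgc
Gstm1: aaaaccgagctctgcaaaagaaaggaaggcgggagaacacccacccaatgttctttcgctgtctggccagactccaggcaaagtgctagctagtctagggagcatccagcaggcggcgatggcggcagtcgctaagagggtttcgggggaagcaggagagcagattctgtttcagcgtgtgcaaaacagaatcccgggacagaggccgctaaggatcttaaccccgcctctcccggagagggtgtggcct
Nqo1: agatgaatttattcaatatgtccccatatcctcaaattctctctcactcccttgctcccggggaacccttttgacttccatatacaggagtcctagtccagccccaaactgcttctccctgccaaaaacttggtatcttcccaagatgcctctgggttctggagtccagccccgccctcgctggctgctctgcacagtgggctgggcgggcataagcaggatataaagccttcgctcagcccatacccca

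The levels of these genes spanned a wide range in the control livers. Gstz1, which also isomerizes maleylacetoacetate in tyrosine breakdown, was highest at 6562 ± 1369 FPKM (SD, n = 6), followed by the microsomal transferase Mgst1 at 5678 ± 1316, Gsta3 at 3569 ± 992 and Gstm1 at 3230 ± 1177. The spreads of Gstz1 and Mgst1, and those of Gsta3 and Gstm1, overlapped. Gclc, the catalytic subunit of glutamate-cysteine ligase, stood at 661 ± 123 FPKM, and Txnrd1, a cytosolic thioredoxin reductase, at 473 ± 76.7. At the low end were Mgst2 (1.2 ± 2.16), Slc7a11 (1.75 ± 0.802) and Gstp2 (2.23 ± 1.95), which reached 1 FPKM in 8, 17 and 17 of the 34 livers. Gsta1 reached it in 24 livers and the other 33 genes in all 34.

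Irs1 KO livers held the most calls among these genes, and nearly all were decreases. Irs1 is the insulin receptor substrate that passes the insulin signal to PI3 kinase. Of the 37 genes, 11 fell and 1 rose by limma on log2(FPKM + 1) with adjusted p-values under 0.05 over all 19295 genes tested. The background was 7.61% of all genes lower and 3.24% higher, against 29.7% and 2.7% of these genes. The median log2 change was -0.41 over the 37 genes and -0.12 over all genes, and 30 of 37 changes were negative. With libraries scaled to a common median these medians were -0.18 and 0.11. In 9 of the 37 genes every Irs1 KO liver lay below every control liver, as did 5.24% of all genes. The map of log2 changes shows the Irs1 KO column as the one with the most marked cells.

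**Figure D1:**
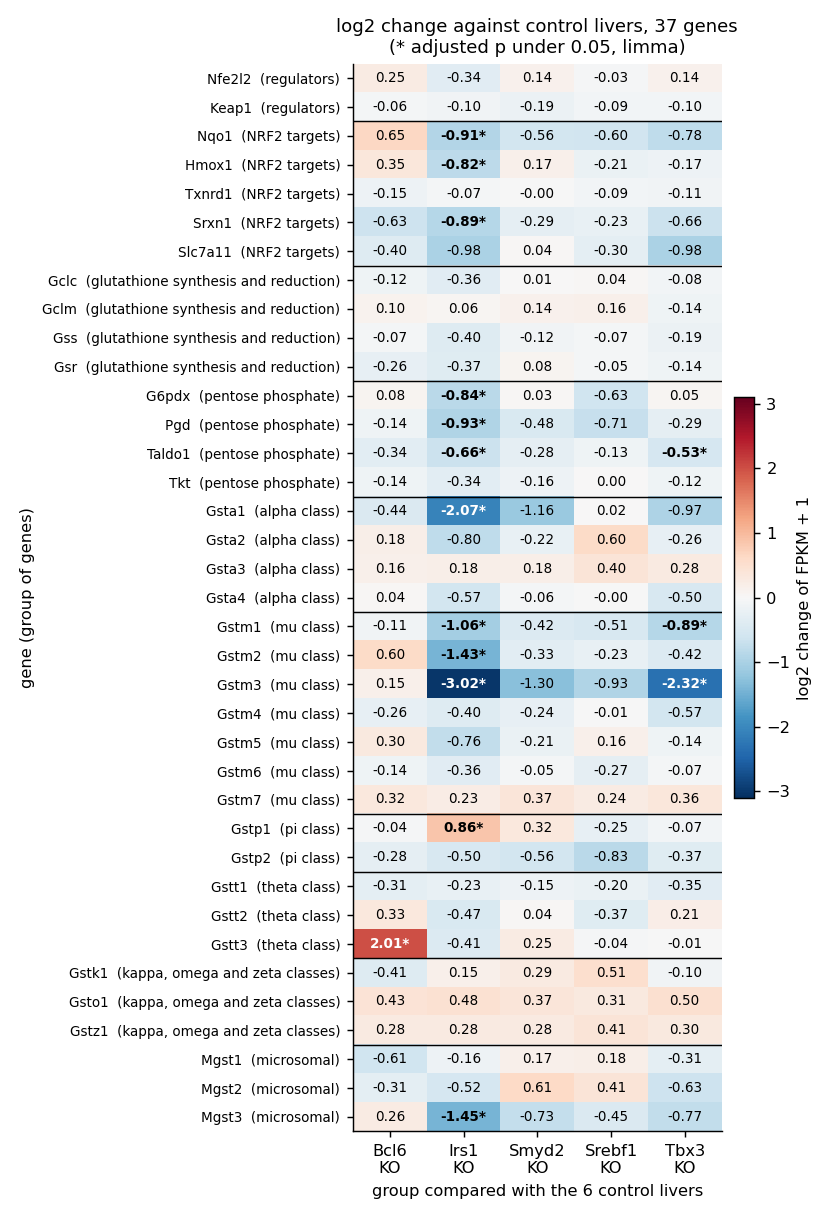
Log2 change of FPKM + 1 against the 6 control livers for each of the 37 genes (rows, grouped by role) in each knockout group (columns); an asterisk marks an adjusted p under 0.05 by limma. Irs1 KO has 12 marked genes, Tbx3 KO 3, Bcl6 KO 1, and Smyd2 KO and Srebf1 KO none.

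The regulators did not pass the test in any knockout. Nfe2l2 had 68.2 to 100.3 FPKM in the Irs1 KO livers and 88.4 to 124 in controls (log2 change -0.34, SE 0.17, limma adjusted p = 0.193). Keap1 ranged from 169 to 253 FPKM over all 34 livers, the smallest ratio of highest to lowest liver (1.5) among the 37 genes. The change of Nfe2l2 mRNA does not measure NRF2 protein, which is set mostly by degradation.

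Among the 5 NRF2 targets, 3 fell in Irs1 KO livers: Nqo1, Hmox1 and Srxn1. Hmox1, the enzyme that degrades heme, had 20.8, 21.6, 21.4, 23.0 and 30.0 FPKM in the Irs1 KO livers, and 34.5 to 49.2 with a median of 41.5 in the controls. The groups did not overlap, and limma gave a change of -0.82 (SE 0.21, adjusted p = 0.0118). Srxn1, which reduces overoxidized peroxiredoxins, had 60.1, 40.0, 52.5, 47.9 and 52.6 FPKM against a control range of 63.5 to 140.7 and a median of 97.8. Here too the highest Irs1 KO liver lay below the lowest control, and limma gave a change of -0.89 (SE 0.23, adjusted p = 0.0103).

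Nqo1, a quinone reductase widely used as a readout of NRF2, had 4.91, 7.04, 4.24, 11.7 and 10.9 FPKM in Irs1 KO livers and 12.3 to 19.5 in the controls, with a median of 13.8. Its log2 change of -0.91 (SE 0.29, limma adjusted p = 0.0395) lost the call in 12 of 21 alternatives, where adjusted p ranged from 0.00703 to 0.144. Txnrd1 stayed at 377 to 522 FPKM against 415 to 587 in the controls (log2 change -0.07, not past the threshold). Slc7a11, the cystine carrier that feeds glutathione synthesis, was listed at 0.213 to 0.624 FPKM in the Irs1 KO livers and 0.424 to 2.38 in the controls. At the value of 1 read these are few reads, and its change of -0.98 (SE 0.41) had a limma adjusted p of 0.12.

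The 4 genes of glutathione synthesis and reduction did not pass the test in Irs1 KO or any other group. Gclc, Gss (glutathione synthetase) and Gsr (glutathione reductase) had log2 changes of -0.36, -0.40 and -0.37 in Irs1 KO livers, with limma adjusted p-values of 0.102, 0.145 and 0.0967. Gclm, at 123 to 162 FPKM there and 120 to 146 in the controls, had a change of 0.06. Gss and G6pdx overlap other genes on the opposite strand (Acss2 and Ikbkg), and the strand setting of the counting is not given in the sources used here.

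Of the 4 pentose phosphate genes, 3 fell in Irs1 KO livers. Their summed level with Tkt was 308 ± 28.3 FPKM (SD, n = 5) against 507 ± 83.5 in the controls (n = 6), and the highest Irs1 KO liver, at 353 FPKM, lay below the lowest control, at 375. Taldo1 made up most of that sum, with a mean of 185 against 295 FPKM. Pgd, which makes the second NADPH of the pathway, had 61.7, 58.3, 74.4, 90.1 and 70.7 FPKM against 83.9 to 199.9 with a median of 145.5. One Irs1 KO liver, replicate 4, lay above the lowest control, and limma gave a change of -0.93 (SE 0.21, adjusted p = 0.00487).

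Taldo1, the transaldolase of the non-oxidative branch, had 194, 167, 184, 211 and 169 FPKM in Irs1 KO livers and 219 to 383 in the controls, with a median of 285. Its change of -0.66 had the smallest SE (0.11) of the 12 genes called, with a limma adjusted p of 0.00018, and no Irs1 KO liver reached the lowest control. G6pdx, the enzyme that commits glucose 6-phosphate to the pathway, had 5.10, 6.96, 7.55, 6.36 and 4.80 FPKM against 6.65 to 16.8. In 2 controls G6pdx was at 6.65 and 7.53 FPKM, and in the other 4 at 12.8 to 16.8. The call on G6pdx (log2 change -0.84, SE 0.28, limma adjusted p = 0.0491) was lost in 17 of 21 alternatives, with adjusted p from 0.0285 to 0.178. Tkt, a transketolase, did not pass in the full data (log2 change -0.34, limma adjusted p = 0.132).

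**Figure D2:**
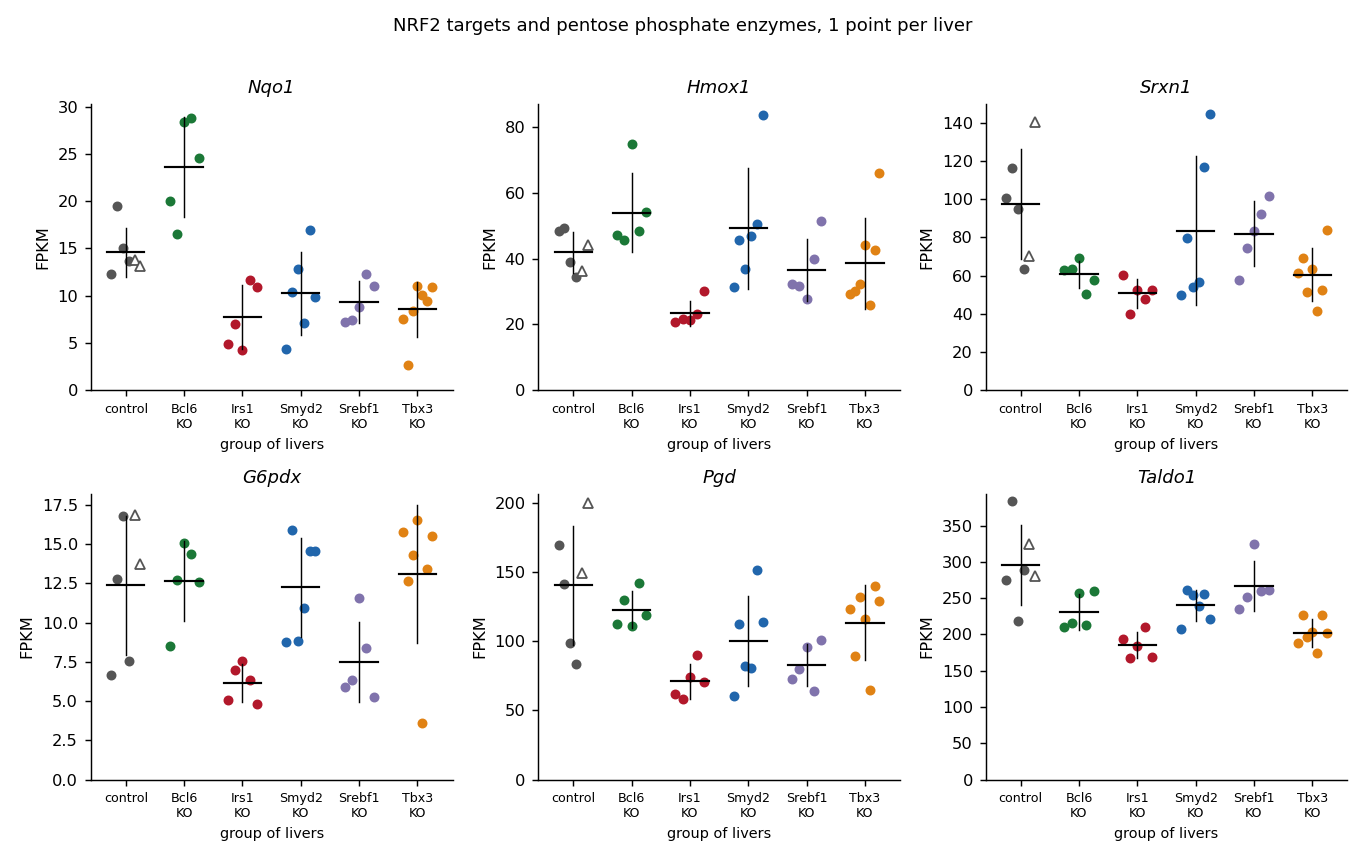
FPKM of 3 NRF2 targets (upper row) and 3 pentose phosphate enzymes (lower row) by group of livers; each point is 1 liver (filled circles sgGFP or knockout, open triangles sgLacZ), the bar is the mean and the vertical line 1 SD to each side. Irs1 KO livers lie below all controls for Nqo1, Hmox1, Srxn1 and Taldo1, and Bcl6 KO livers are the highest group for Nqo1.

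The mu class transferases, a gene cluster on chromosome 3, held the largest decrease. Gstm3 fell most: Irs1 KO livers had 44.0, 33.0, 15.8, 42.8 and 23.3 FPKM, against 174 to 354 with a median of 255 in the controls. Every Irs1 KO liver was below every control by a wide margin, with a log2 change of -3.02 (SE 0.44, limma adjusted p = 4.62e-05). Gstm2 had 95.3, 64.1, 53.8, 101 and 87.8 FPKM against 122 to 344 with a median of 211. Again the groups did not overlap, with a limma change of -1.43 (SE 0.22, adjusted p = 9.34e-05).

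Gstm1, the most abundant mu class gene, had 1599, 1958, 1092, 1624 and 1217 FPKM in Irs1 KO livers and 1997 to 4877 with a median of 2829 in the controls. The highest Irs1 KO liver lay just under the lowest control, and limma gave a change of -1.06 (SE 0.21, adjusted p = 0.00112). The sum over all 7 mu class genes was 2290 ± 395 FPKM (SD, n = 5) against 4555 ± 1446 (n = 6), and the mean of Gstm1 went from 3230 to 1498 FPKM. Gstm4, Gstm5 and Gstm6 had log2 changes of -0.40, -0.76 and -0.36 without passing the test, and Gstm7 had 0.23.

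In GENCODE M21 (GRCm38) the cluster runs from Gstm5 at chr3:107895821-107898686 through Gstm7, Gstm6, Gstm3 (chr3:107963696-107969283), Gstm2 (chr3:107981702-107986453) and Gstm1 (chr3:108012255-108017973) to Gstm4 (chr3:108040408-108044894). The 3 genes that fell are neighbours, with the 4 that did not pass on both sides of them. Copies make the split of reads within the cluster uncertain: of all 50-base stretches in annotated transcripts, 28.8% of Gstm3, 18.9% of Gstm1 and 5.7% of Gstm2 also occur in another gene.

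**Figure D3:**
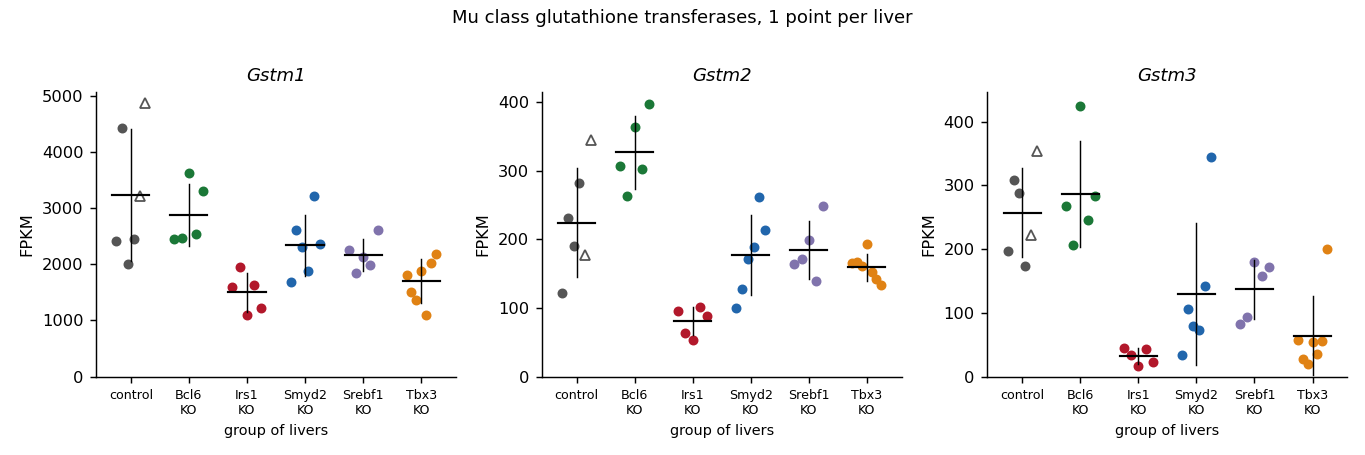
FPKM of Gstm1, Gstm2 and Gstm3 by group of livers; each point is 1 liver (filled circles sgGFP or knockout, open triangles sgLacZ), the bar is the mean and the vertical line 1 SD to each side. Irs1 KO livers lie below all controls for the 3 genes, and in Tbx3 KO 6 of 7 livers do so for Gstm3, with replicate 7 at 200 FPKM.

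Other transferases were mixed in Irs1 KO livers. Mgst3, a microsomal transferase and peroxidase, had 14.4, 5.10, 4.61, 16.7 and 18.6 FPKM against 23.0 to 37.5 with a median of 30.5, without overlap (log2 change -1.45, SE 0.34, limma adjusted p = 0.00604). Gsta1 was listed at 0, 0.470, 0.849, 0.439 and 0.858 FPKM against 1.37 to 16.2 in the controls. Its log2 change of -2.07 (SE 0.60, limma adjusted p = 0.0239) rests on few reads and on a sequence of which 90.5% of 50-base stretches occur in other genes. The call was lost without Irs1 KO replicate 1, without sgLacZ replicate 2 and with sgGFP alone as control, where the highest adjusted p was 0.116. Gsta3, the abundant alpha class gene, had a change of 0.18.

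Gstp1 was the 1 gene that rose, and the rise was uneven. Irs1 KO livers had 465, 655, 476, 331 and 187 FPKM, and the controls 125 to 373 with a median of 207, so replicates 4 and 5 lay inside the control range. By limma the change was 0.86 (SE 0.26, adjusted p = 0.0286), and the call was lost in 8 of 21 alternatives (adjusted p 0.00384 to 0.111). Smyd2 KO replicates 1 and 2, at 430 and 415 FPKM, also lay above every control. Gstp1 was not called between Irs1 KO and Smyd2 KO (log2 difference 0.54, limma adjusted p = 0.23). It was called higher in Irs1 KO than in Bcl6 KO, Srebf1 KO and Tbx3 KO. Gstp1 shares 33.7% of its 50-base stretches with Gstp2, which was at most 5.27 FPKM in any liver.

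Other measures moved with the Irs1 KO group. Markers of stellate cells fell in 4 of 8 genes, with a summed level of 587 to 697 FPKM against 778 to 1697 in the controls. Macrophages also express Hmox1, and their markers fell in 2 of 10 (Csf1r and Gpnmb) and summed to 577 to 997 against 747 to 1204 FPKM. Lymphocyte markers summed to 130 to 234 against 281 to 558, with 1 of 5 lower (Ptprc). Cholangiocyte markers summed to 296 to 555 against 730 to 3080, with 1 of 7 lower (Spp1). These single genes made up most of the sums, with means of 176 against 351 FPKM for Ptprc and 300 against 1377 for Spp1. The median log2 changes of the 2 lists were -0.71 and -0.65. Endothelial markers fell in 2 of 6 (Lyve1 and Pecam1), with a sum of 398 to 582 against 496 to 690 FPKM. Means were 205 against 288 FPKM for Pecam1 and 19.6 against 47.8 for Lyve1. The median log2 change of the 6 endothelial markers was -0.10, near the -0.12 of all genes. The 3 neutrophil markers summed to 2.90 to 17.6 against 11.8 to 109 FPKM, and none of the 2 that were tested was called. Ly6g was at 0 in all 5 Irs1 KO livers, and also in every Bcl6 KO and Srebf1 KO liver. Periportal hepatocyte markers rose in 4 of 6 (8620 to 11272 against 4574 to 6759 FPKM) and pericentral ones in 2 of 7 (6722 to 8096 against 2406 to 7529). Of 7 further hepatocyte markers 3 rose (Apoa1, Tat and Cps1), with a sum of 72637 to 106460 against 59983 to 81339 FPKM. Of 3 erythroid genes, Alas2 rose, and the sum was 492 to 712 against 292 to 458 FPKM. Alas2 made up most of that sum (mean 531 against 332 FPKM), and the median log2 change of the 3 genes was -0.21. The part of these changes in the results above was not tested.

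Tbx3 KO livers, in which a T-box transcription factor expressed in pericentral hepatocytes was targeted, had 3 calls, all decreases: Gstm3, Gstm1 and Taldo1. These are 8.1% of the 37 genes lower and 0.0% higher, against a background of 1.37% of all genes lower and 1.17% higher. The median log2 change was -0.17 over the 37 genes and -0.06 over all genes. Gstm3 ranged from 19.6 to 57.0 FPKM in 6 Tbx3 KO livers and stood at 200 in replicate 7, inside the control range (limma change -2.32, SE 0.40, adjusted p = 0.000761). Gstm1 ranged from 1089 to 2189 FPKM with a median of 1815 and overlapped the lowest control (log2 change -0.89, SE 0.19, limma adjusted p = 0.00684). Taldo1, at 175 to 227 FPKM with a median of 201, had a change of -0.53 (SE 0.10, limma adjusted p = 0.00199).

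The number of calls in Tbx3 KO depended on single livers. Without Tbx3 KO replicate 7, 8 of the 37 genes were called, while the share of all genes called went from 2.54% to 7.66%, so the gain was not particular to these genes. In that fit Srxn1 (-0.74), Slc7a11 (-1.30), Gsta4 (-0.64) and Gstm4 (-0.57) also fell, and Gsto1 rose (0.53), with limma adjusted p-values of 0.0283, 0.0153, 0.0422, 0.0458 and 0.0476. Without sgGFP replicate 4 the count was 5 (3.02% of all genes), and with sgGFP replicate 3, Smyd2 KO replicate 6 and Tbx3 KO replicate 7 all left out it was 5 too (6.26%). Slc7a11 was listed at 0 in 4 Tbx3 KO livers, at 0.205 and 0.211 in a pair of them, and at 3.96 FPKM in replicate 7. All 7 livers had less Nqo1 than any control (2.60 to 11 against 12.3 to 19.5 FPKM), yet the change of -0.78 (SE 0.27) had a limma adjusted p of 0.11. The 5 Srebf1 KO livers also lay below every control for Nqo1, at 7.26 to 12.32 FPKM against a lowest control of 12.34 (limma adjusted p = 0.376). The share of all genes that separate this way in the Tbx3 KO and Srebf1 KO comparisons was not computed. The calls on Taldo1 and Gstm1 were lost when only Tbx3 KO and control livers were fitted. That on Taldo1 was also lost under median scaling and that on Gstm1 with sgGFP alone as control, with limma adjusted p-values of at most 0.0548 and 0.0805 over the alternatives. The call on Gstm3 held in all 23 alternatives. Periportal markers rose in 4 of 6 in this group (6645 to 12366 FPKM) and stellate cell markers fell in 2 of 8 (421 to 1460 FPKM). Of 7 further hepatocyte markers 1 rose (Cps1), and of 7 pericentral ones 1 rose (Rhbg). The part of these changes was not tested.

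Bcl6 KO livers had 1 call, an increase. BCL6 is a transcriptional repressor that in mouse liver holds down many genes. The share of these genes was 2.7% higher and 0.0% lower, against 2.95% and 3.19% of all genes, so it lay near the background. Gstt3, a theta class transferase, had 97.1, 72.5, 76.0, 107.8 and 74.2 FPKM against 12.7 to 31.1 with a median of 20.4 in the controls. The groups were far apart, with a log2 change of 2.01 (SE 0.31, limma adjusted p = 2.69e-05), and the call held in all 21 alternatives. On chromosome 10, Gstt3 overlaps Gm20441 on the same strand, with which it shares 12.2% of its 50-base stretches.

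Its neighbours did not do the same. Gstt1 had 150 to 255 FPKM in Bcl6 KO livers against 196 to 315 in the controls, and Gstt2 136 to 179 against 96.5 to 164, neither past the test. Nqo1 was highest in Bcl6 KO of all groups, at 20, 16.6, 28.4, 28.8 and 24.6 FPKM, with a limma adjusted p of 0.218 against the controls. Mgst1 ranged from 2815 to 5582 FPKM against 3519 to 7130 (log2 change -0.61, SE 0.20, limma adjusted p = 0.0666). Without sgGFP replicate 3 or Bcl6 KO replicate 5, Mgst1 and Taldo1 both passed as lower, giving 3 calls in place of 1. The count was also 3 without Bcl6 KO replicate 3 (Taldo1 and Gstm7), and 2 without sgGFP replicate 4 (Srxn1) or sgLacZ replicate 2 (Gstm2). Hepatocyte markers rose in 5 of 7 in this group and fell in 1 (135494 to 189582 FPKM in sum), and endothelial markers rose in 3 of 6 (650 to 771 FPKM). Alb made up most of the hepatocyte sum, with a mean of 131469 FPKM against 45811 in the controls. The median log2 change of the 7 hepatocyte markers was 0.74. Cholangiocyte markers fell in 1 of 7 (Sox9, log2 change -1.27) with a summed level of 470 to 1144 FPKM, and stellate cell markers in 1 of 8 (Lrat, -0.75) with 704 to 983 FPKM. Of 6 periportal markers Cyp2f2 fell (-1.39) and Gls2 rose (0.60), with a sum of 4694 to 6268 FPKM. Of 7 pericentral markers Cyp1a2 rose (1.02), and of 3 erythroid genes Alas2 fell (-0.53), with sums of 2645 to 5445 and 230 to 351 FPKM. The median log2 changes of these lists had the other sign, at -0.38 and 0.32. The part of these changes was not tested.

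**Figure D4:**
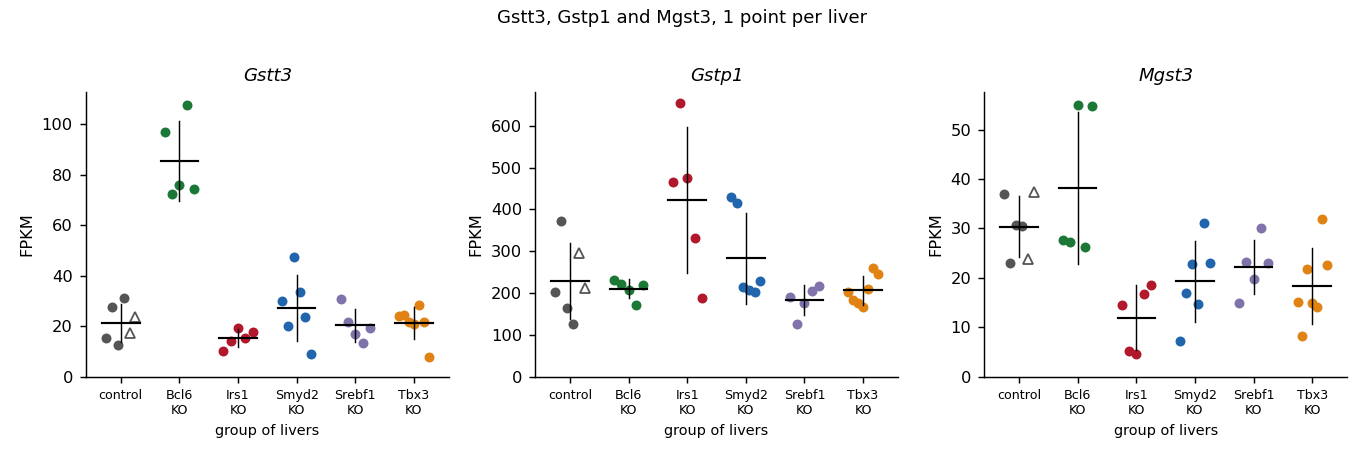
FPKM of Gstt3, Gstp1 and Mgst3 by group of livers; each point is 1 liver (filled circles sgGFP or knockout, open triangles sgLacZ), the bar is the mean and the vertical line 1 SD to each side. All 5 Bcl6 KO livers lie above every other liver for Gstt3, and all Irs1 KO livers lie below all controls for Mgst3. For Gstp1, 3 of 5 Irs1 KO livers lie above all controls, as do Smyd2 KO replicates 1 and 2.

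Smyd2 KO and Srebf1 KO livers had no call among the 37 genes by limma. For Smyd2 KO the background at an adjusted p under 0.05 was 0.0% of all genes higher and 0.0% lower. Without adjustment, 9 of the 37 genes had a p under 0.05. The share of all genes at an unadjusted p under 0.05 was not computed, so nothing is read from this count. Smyd2 encodes a lysine methyltransferase. Gstm3 in its livers ranged from 34.4 to 345 FPKM with a median of 92.2, and replicate 6 was the highest (limma change -1.30, SE 0.42, adjusted p = 0.412). For Srebf1 KO, which targets a transcription factor of lipid synthesis, the background at an adjusted p under 0.05 was 0.197% higher and 0.181% lower. Here 8 of the 37 genes had an unadjusted p under 0.05, again with no share of all genes to set beside it. Pgd had the lowest p, at 64.2 to 100.7 FPKM (limma change -0.71, SE 0.21, adjusted p = 0.136). Leaving out replicate 1 of Srebf1 KO, whose Srebf1 level was that of a control, also gave no call. Median SEs over the 37 genes were 0.19 and 0.20 on the log2 scale in the Smyd2 KO and Srebf1 KO comparisons. At an unadjusted p under 0.05, 3 of the 37 genes differed between sgLacZ and sgGFP livers, with no share of all genes computed there either. The sgLacZ and sgGFP livers also showed no call among the 37 against a background of 0.0104% in either direction, with 2 livers in one arm. Yet 27 of the 37 changes were positive, with a median of 0.19 over the 37 genes and 0.0 over all genes, and 5 genes (Gsr, Gsta1, Gstt2, Gsto1 and Mgst1) were higher in both sgLacZ livers than in any sgGFP liver. Over all genes, 13.4% did not overlap between the guides. With sgGFP alone as control, the median change of the 37 genes in Irs1 KO was -0.34, with 8 lower and 2 higher.

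Differences between knockouts were tested in the same fit, so the controls enter no difference but their spread enters the SEs. A limma F test over the 5 knockouts called 15 of the 37 genes, against 14.5% of all genes: Nqo1, Hmox1, G6pdx, Pgd, Taldo1, Gsta2, Gstm1, Gstm2, Gstm3, Gstp1, Gstt2, Gstt3, Gstk1, Mgst1 and Mgst3. The lowest adjusted p-values of that limma F test were 2.46e-06 for Gstm2, 6.74e-06 for Gstt3 and 2.9e-05 for Gstm3. Nfe2l2, Keap1, Txnrd1 and the 4 genes of glutathione synthesis and reduction were not among those called.

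Bcl6 KO and Irs1 KO were the pair with the most calls, 13 of 37 (background 11.3%), of which 12 were higher in Bcl6 KO. Gstm3 was higher by 3.18 on the log2 scale, Gstt3 by 2.42, Gstm2 by 2.03, Mgst3 by 1.71, Nqo1 by 1.55 and Hmox1 by 1.16, with limma adjusted p-values of 6.74e-06, 1.49e-06, 7.84e-08, 0.00118, 0.000557 and 0.00042. Nfe2l2 itself was higher in Bcl6 KO by 0.60 (SE 0.17, limma adjusted p = 0.0228). Gstp1 was the 1 gene lower in Bcl6 KO, by a log2 difference of -0.90. Bcl6 KO differed from Tbx3 KO in 6 genes (background 9.31%), all higher in Bcl6 KO, among them Nqo1, Gstm1, Gstm2 and Gstm3. It differed from Smyd2 KO in 6 (5.83%) and from Srebf1 KO in 6 (8.76%), with Gstk1 and Mgst1 lower in both.

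Irs1 KO differed from Tbx3 KO in 3 genes (background 2.81%). Gstm2 was lower in Irs1 KO by a log2 difference of -1.01 (SE 0.21, limma adjusted p = 0.00731), Gstt2 was lower (-0.68) and Gstp1 higher (0.93). For Gstm3 and Gstm1, called in both against the shared controls, the differences of -0.70 (SE 0.42) and -0.18 (SE 0.20) had limma adjusted p-values of 0.456 and 0.749. Irs1 KO differed from Srebf1 KO in 5 genes (1.6%) and from Smyd2 KO in 4 (4.26%), with Gstm2, Gstm3 and Taldo1 lower in Irs1 KO both times. No gene of the 37 differed between Smyd2 KO and Srebf1 KO (0.0777% of all genes), Smyd2 KO and Tbx3 KO (0.902%) or Srebf1 KO and Tbx3 KO (0.943%).

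Other genes of these pathways were read from 6 lists, and their shares are set beside the backgrounds given above for all genes. The lists were chosen with earlier results of these data known, so the shares are descriptive only. None of 9 further NRF2 regulators (Cul3, Rbx1, small MAF genes, Bach1 and others) passed in any knockout. Of 20 further NRF2-linked enzymes and carriers, 8 fell in Irs1 KO and 4 in Tbx3 KO with none higher, 7 fell and 2 rose in Bcl6 KO, and none passed in the other 2 groups. The shares lower were 40.0% in Irs1 KO (7.61% of all genes), 20% in Tbx3 KO (1.37%) and 35.0% in Bcl6 KO (3.19%), and the share higher in Bcl6 KO was 10% (2.95%). Entpd5, an endoplasmic reticulum nucleotidase, went from 1249 ± 215 FPKM (SD, n = 6) in controls to 703 ± 64.5 in Irs1 KO (n = 5), a log2 change of -0.82 with a limma adjusted p of 0.000517. Cbr1, a carbonyl reductase, fell by 0.61 on the log2 scale there (limma adjusted p = 0.00196). In Bcl6 KO the efflux pump Abcc3 fell by 1.40 (limma adjusted p = 5.57e-06) while its relative Abcc4 rose by 1.57 (limma adjusted p = 0.000491).

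Of 22 tested genes of glutathione use, breakdown and precursors, 4 rose and 3 fell in Irs1 KO, 2 rose in Tbx3 KO and 1 rose in Bcl6 KO. In Irs1 KO these are 18.2% higher and 13.6% lower (3.24% and 7.61% of all genes), in Tbx3 KO 9.09% higher (1.17%) and in Bcl6 KO 4.55% higher (2.95%). Gpx4, which reduces lipid hydroperoxides in membranes, went from 429 ± 42.1 to 205 ± 11.3 FPKM in Irs1 KO (log2 change -1.05, limma adjusted p = 0.000113). Cbs, the first enzyme of cysteine synthesis from homocysteine, rose there by 1.00 (limma adjusted p = 0.00098), as did Lap3, an aminopeptidase, by 0.41 (limma adjusted p = 0.00252). Gpx3, the plasma glutathione peroxidase, rose in Bcl6 KO by 2.29 (limma adjusted p = 0.00246). Of 15 further pentose phosphate and NADPH genes, 2 fell (Me1 by 1.01 on the log2 scale, Nadk by 0.30) and Mthfd1 rose by 0.39 in Irs1 KO, with limma adjusted p-values of 0.0233, 0.0317 and 0.0232. At 13.3% lower and 6.67% higher these few calls lie near the background of 7.61% and 3.24%, and nothing is read from them about the list. Idh1 rose by 0.50 in Bcl6 KO (limma adjusted p = 0.0223). It was the 1 call of the list there, 6.67% higher against 2.95% of all genes, and nothing is read from it about the list. Of 13 other antioxidant enzymes, Prdx3 and Sod3 fell in Irs1 KO (log2 changes -0.69 and -0.56, limma adjusted p = 0.0487 and 0.012) and Prdx5 in Bcl6 KO (-0.62, limma adjusted p = 0.00103). These 2 genes and 1 gene are 15.4% and 7.69% of the list, against 7.61% and 3.19% of all genes. None of 5 tested relatives of the transferases passed in any group.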

How the data were processed

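Per the labels' protocols, liver RNA (TRIzol, then RNeasy columns) was made into libraries with the SMARTer stranded total RNA kit. The deposited values are FPKM made by the authors. Reads were counted with featureCounts 1.6.4 per the submitters' processing notes, which name the builds mm10 and GRCh38 without a role. The aligner, annotation and strandedness of the counting were not given in the sources used here.

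From these values log2(FPKM + 1) was computed for the 19295 genes with 1 FPKM or more in at least 5 libraries, and limma 3.58.1 (R 4.3.3) was fitted to all 34 livers with 6 levels (5 knockouts and the pooled control), with an intensity trend. Contrasts, an F test over the knockouts and 10 pairs of knockouts had two-sided p-values adjusted (Benjamini-Hochberg) over the 19295 genes, with a threshold of 0.05. Log2 changes understate those of low genes. Depth came from the steps of low values and GENCODE M21 transcript lengths. Promoters are from RefSeq.

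All 37 genes are accounted for. Genes of 6 further lists are counted, and up to 4 of a list are named by smallest adjusted p. The genes, lists and tests were chosen with earlier results of these data known.

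Alternatives were a pseudocount of 0.1, no filter, a filter at 5 FPKM, median scaling, quantile normalization, no intensity trend, a replicate block, fits of 2 groups, sgGFP alone as control, leaving out each liver, and leaving out 3 livers together (chosen after seeing the data).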

Additional observations from a re-analysis of the deposited data

Results flagged for a closer look

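In 222 groups of livers (37 genes in 6 groups), 17 had 1 liver far from the others by Dixon's ratio on log2(FPKM + 1). Chance flags about 1 in 20 groups, and no explanation was tested.

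In Tbx3 KO replicate 7, Slc7a11 stood at 3.96 FPKM against 0 to 0.211 in the other 6 livers, Gstt3 at 7.85 against 20.8 to 28.3, Gstt1 at 110.0 against 186 to 225, and Mgst2 at 0.363, about the value of 1 read, with the others at 0. Where all other livers are at 0, as for Mgst2 in 3 groups, any value above 0 is picked out. In the same group Nqo1 was low in replicate 2 (2.60 against 7.49 to 11) and G6pdx in replicate 5 (3.62 against 12.7 to 16.6).

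Smyd2 KO replicate 6 had high Txnrd1 (549 FPKM against 436 to 469) and low Gsta3 (2167 against 3851 to 5338) and Mgst1 (3212 against 6238 to 7524). In Irs1 KO, Hmox1 was high in replicate 5 (30.0 against 20.8 to 23.0), Gss and Gstk1 were low in replicate 2 (166.0 against 216 to 235, and 90.0 against 120 to 128), Gsto1 was low in replicate 3 (85.3 against 117 to 130), and Mgst2 was seen in replicate 5 alone (0.838). In Bcl6 KO replicate 5, Gstm5 was low (6.97 against 15.2 to 20.1) and Gstk1 high (129.0 against 67.6 to 70.3), and Mgst2 was seen in replicate 1 alone (2.78).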

How the results depend on the processing

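Of 3977 gene values recomputed under the alternatives, 3888 stayed on their side of the threshold, 44 lost a call, 45 gained one, and none was called with the other sign; 142 values called under neither changed sign. In Bcl6 KO the count of 1 became 2 with a filter at 5 FPKM, 2 with quantile normalization, 1 to 3 when leaving out 1 liver (3 without Bcl6 KO replicate 3, Bcl6 KO replicate 5 or sgGFP replicate 3, and 2 without sgGFP replicate 4 or sgLacZ replicate 2) and 3 without sgGFP replicate 3, Smyd2 KO replicate 6 and Tbx3 KO replicate 7; in these fits 5.41% to 7.83% of all genes were called, against 6.14%. In Tbx3 KO the count of 3 became 1 in the fit of 2 groups, 3 to 8 when leaving out 1 liver (5 without sgGFP replicate 4, 8 without replicate 7) and 5 without the 3 livers, with 0.68%, 3.02%, 7.66% and 6.26% of all genes called in the fits named, against 2.54%. Leaving out 1 liver gave 8 to 13 calls in Irs1 KO, 11 to 16 in the F test and 34 to 49 over the pairs of knockouts, against 12, 15 and 43.

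Livers with the same replicate number did not deviate together on average (mean r -0.004 over 81 pairs, from -0.179 to 0.162). The numbers were not used as pairs in the main fit. A mean over all pairs cannot exclude that some livers shared a batch. The fit with a replicate block gave 10 calls in Tbx3 KO, where number 7 occurs in that group alone and the block removes that liver, and 15 in Irs1 KO; the shares of all genes called were 10% and 12.9%, against 2.54% and 10.9% without the block.

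Median scaling moved the median of all genes in Irs1 KO from -0.12 to 0.11 on the log2 scale. The share of calls that were higher, over all genes, then went from 29.8% to 69.4% in Irs1 KO (49.3% with quantile normalization), from 48.1% to 66.2% in Bcl6 KO (59.3%), from 52.1% to 70.7% in Srebf1 KO and from 45.9% to 69.8% in Tbx3 KO. The median over the 37 genes went from -0.41 to -0.18 in Irs1 KO and from -0.17 to -0.04 in Tbx3 KO, where 2 of 3 calls stayed. Among the 37 genes, Irs1 KO then had 9 lower and 2 higher (Gstp1 and Gsto1) under both scalings. At this depth Mgst2, Slc7a11, Gstp2 and Gsta1 rest on few reads.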
